A study of Mus musculus with 6 samples.

Results

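Ubiquitin-conjugating enzymes, or E2s, were followed at the mRNA level in mouse oocytes at the germinal vesicle stage, fully grown but still held in meiotic prophase. The set held 35 of the 27179 genes in the count files: every protein-coding gene whose symbol begins with Ube2, apart from Ube2a and Ube2b. The study had 3 wildtype libraries and 3 libraries from maternal Prdm10 knockouts, each made from about 10 pooled oocytes. In the knockouts a Cre recombinase under control of Zp3, a gene that growing oocytes express, had removed the floxed exon 5 of Prdm10, a PRDM family gene for a zinc finger regulator of transcription. Mouse strain and age are not in the labels, nor is whether the wildtype animals carried the floxed allele or Cre. The labels call the replicates biological without naming separate mice, so the p-values reflect only how much these pools vary, which may be technical. Levels of pooled oocytes cannot tell fewer cells from less RNA per cell. The comparison asks which E2 messages the oocyte stores and which of them differ once maternal Prdm10 is lost.

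E2 enzymes take activated ubiquitin from an E1 enzyme onto a catalytic cysteine and, together with an E3 ligase, pass it to a target protein. The E2 often sets which kind of chain is built and so whether the target is degraded, relocated or used as a signal. A few members of the family carry relatives of ubiquitin such as NEDD8 or ISG15, and others lack the cysteine and only assist a partner. In oocytes the anaphase-promoting complex, which works with Ube2c and Ube2s, removes cyclin B and securin during meiotic maturation. One gene that met the rule is no E2: Ube2cbp, also called Ube3d, encodes a ligase-like protein that binds an E2.

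Library totals ran from 22492228 to 38831227 counts. Wildtype replicate 1 stood apart, with Spearman correlations of 0.976 and 0.975 to the other wildtype libraries, which reached 0.996 with each other, so results are also given without it. Prdm10 had 2.80, 3.82 and 3.05 CPM in knockout replicates 1 to 3 against 10.4, 23.1 and 23.0 CPM in wildtype replicates 1 to 3 (CPM, counts per 1000000 after scaling by the trimmed mean of M values). All 12 oocyte markers examined had counts in every library, with summed levels of 25810 to 27730 CPM in knockout and 21610 to 27110 CPM in wildtype libraries. Of 17 granulosa and cumulus markers 10 averaged at least 1 CPM and Ptx3 was at 0 throughout. Their sum was 463 to 499 CPM in knockout and 269 to 420 CPM in wildtype, mostly from Serpine2, and 77.7 to 91.4 against 86.2 to 95.1 CPM without that gene. Of 8 blood, immune and endothelial markers, Hba-a1 and Cdh5 were at 0 in all libraries, and the sum, led by Pecam1, was 117 to 121 against 36.5 to 82.2 CPM. Without Pecam1 it was 13.6 to 15.6 against 4.67 to 6.67 CPM. Cd68 was at 10.3 CPM or more in each knockout library against 1.24 to 3.63 CPM in wildtype. Kdr overlapped between the genotypes, at 3.18 to 4.3 against 2.19 to 4.89 CPM. Ptprc, Lyz2 and Hbb-bs overlapped too, at no more than 0.344 CPM in any library. Of this list only Pecam1 and Cd68 thus lay apart. Of 9 theca and stroma markers 2 averaged at least 1 CPM, and the sum was 4.72 to 7.92 against 4.07 to 10.2 CPM. The part of these markers in the results below was not tested.

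A handful of genes supplied most of the E2 message. Levels of different genes were compared as CPM per kilobase of the longest annotated coding transcript. Summed over the 35 genes, wildtype libraries held 1933 ± 188 CPM per kilobase (SD, n = 3). The 6 most abundant genes, Ube2t, Ube2d3, Ube2w, Ube2g1, Ube2c and Ube2k, made up 82.5 ± 2.13% of that sum in wildtype and 82.9 ± 1.04% in knockout libraries. The same 6 filled the top of the order in each of the 6 libraries. With exon union lengths, which count every annotated exon, the 6 most abundant held 73.7% and Ube2d3 dropped from place 2 to place 6.

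Ube2t led by a wide margin. It encodes the E2 of the Fanconi anaemia pathway, which attaches a single ubiquitin to the FANCD2 protein during the repair of DNA crosslinks. Per kilobase it had 612, 763 and 730 CPM in wildtype replicates 1 to 3 and 676, 735 and 725 CPM in knockout replicates 1 to 3. Each library placed it first. Ube2t alone held 36.3 ± 0.916% of the members' sum in wildtype, and it lay at percentile 99.7 among 20726 protein-coding genes. Counted per coding length, it came at place 3 behind Ube2d3 and Ube2g1.

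Ube2d3, a general E2 that works with many ligases, was second, at 251, 299 and 315 CPM per kilobase in wildtype replicates 1 to 3 and 293, 292 and 291 in knockout replicates 1 to 3. Ube2w, which attaches ubiquitin to the amino terminus of proteins, was at place 3 in each wildtype library, at 150, 243 and 245 CPM per kilobase, with 186, 207 and 205 in knockout replicates 1 to 3. Wildtype replicate 1 was the lowest of the 6 libraries for both genes. Ube2g1, which extends degradation chains started by cullin ligases, had 112, 208 and 210 CPM per kilobase in wildtype replicates 1 to 3 and 191, 197 and 199 in knockout replicates. Its low value in wildtype replicate 1 let Ube2k and Ube2c pass it there, so the order of those genes was not stable. The order also changed with the lengths used. With RefSeq-matched transcripts Ube2w was at place 2, Ube2d3 at 3, Ube2c at 4 and Ube2g1 at 5. With coding lengths Ube2g1 was at place 2, Ube2k at 4 and Ube2w at 5.

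Ube2c, which starts the chains that the anaphase-promoting complex builds, had 117, 107 and 108 CPM per kilobase in wildtype replicates 1 to 3 and 126, 132 and 132 in knockout replicates. These values rest on a transcript of 2191 bases. With the RefSeq-matched transcript of 967 bases Ube2c had 250.5 ± 11.7 CPM per kilobase in wildtype and 294.9 ± 8.05 in knockout libraries. Ube2k, which builds degradation chains without needing a preformed one, had 131, 95.6 and 92.7 CPM per kilobase in wildtype replicates and 82.0, 92.4 and 89.5 in knockout replicates. Behind these came Ube2g2, an E2 of endoplasmic reticulum-associated degradation, at 44.2, 44.5 and 47.7 CPM per kilobase in wildtype and 71.2, 51.3 and 53.3 in knockout replicates 1 to 3. Ube2d2a, a near relative of Ube2d3, had 54.3, 40.6 and 39.5 in wildtype and 31.6, 34.0 and 33.5 in knockout replicates 1 to 3. Those 8 genes were the members at or above the 90th percentile of protein-coding genes.

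**Figure D1:**
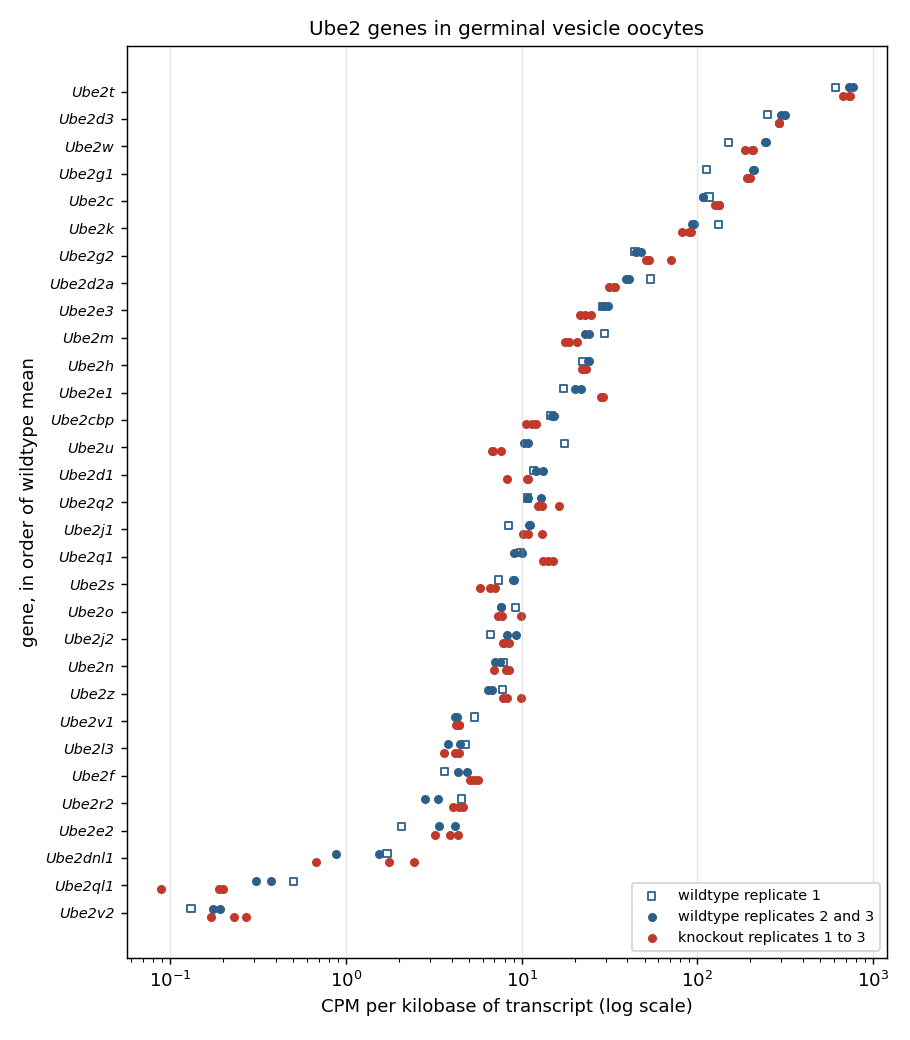
Level of 31 of the 32 tested Ube2 genes in each library, as CPM per kilobase of transcript on a log axis, with wildtype libraries in blue (replicate 1 as an open square) and knockout libraries in red. Ube2t lies highest in all 6 libraries, and for most genes the genotypes sit close together.

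The middle of the order, from place 9 to place 29 in wildtype oocytes, ran from Ube2e3 at 29.6 ± 1.20 to Ube2e2 at 3.19 ± 1.05 CPM per kilobase. It held both NEDD8 enzymes, Ube2m (25.6 ± 3.43) and Ube2f (4.27 ± 0.612). The value of Ube2f rests on a transcript of 5654 bases. With the RefSeq-matched transcript of 1363 bases it was 17.7 ± 2.54 CPM per kilobase, and its place moved from 27 to 14. The middle also held Ube2h, the E2 of the CTLH ligase (23.4 ± 0.941), and Ube2l3, which serves HECT and RBR ligases (4.36 ± 0.504). Ube2n, which makes the non-degradative chains of signalling and DNA damage tolerance, stood at 7.47 ± 0.424. Its inactive partners differed widely from each other, with Ube2v1 at 4.62 ± 0.662 and Ube2v2 at 0.166 ± 0.0313 CPM per kilobase. Ube2v2 had between 16 and 43 counts per library. Ube2s, which lengthens the chains that Ube2c starts, was at 8.44 ± 0.946 CPM per kilobase, and the ratio of Ube2c to Ube2s was 13.3 ± 2.23. That ratio depends on the lengths used, at 30.1 ± 5.06 with the RefSeq-matched transcripts, 29.7 ± 4.99 with coding lengths and 46.4 ± 7.82 with exon union lengths. Ube2s was at place 20 by transcript length and at place 27 by coding length.

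At the bottom, 3 genes had too few counts to test. Ube2d2b and Ube2dnl2, relatives of the UBE2D family, and Ube2l6, the ISG15 enzyme, had at most 3 counts in any library, so no fold was computed for them. Ube2dnl1 had 17 to 68 counts and Ube2ql1, a relative of Ube2q1, 9 to 56.

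In the knockout the sum of these messages lay within the range of the wildtype libraries. The members' summed level was 1902, 1982 and 1965 CPM per kilobase in knockout replicates 1 to 3, beside 1717, 2045 and 2038 in wildtype replicates 1 to 3. Each knockout library lay above wildtype replicate 1 and below wildtype replicates 2 and 3. The groups overlapped, with a ratio of 1.01 and an exact two-sided permutation p of 1.0, where 3 against 3 libraries cannot go below 0.1. The order of the 35 genes by mean level was also close in both genotypes, with a Spearman coefficient of 0.974 across genes, which are not independent replicates. The 2 genes outside the set behaved differently from one another. Of the summed level of the members with Ube2a and Ube2b, Ube2a held 8.55 ± 0.819% in wildtype and 0.215 ± 0.0350% in knockout libraries. Ube2b held 4.98 ± 0.673% in wildtype and 5.16 ± 0.101% in knockout libraries (log2 fold change -0.06, SE 0.110, edgeR adjusted p = 0.769). The sum with both of them was 2060 ± 45.7 against 2234 ± 182 CPM per kilobase, with an exact two-sided permutation p of 0.3. It was 2008, 2094 and 2078 in knockout and 2024, 2342 and 2335 in wildtype replicates 1 to 3. The overlap thus came from wildtype replicate 1, and without it the wildtype mean was 2339.

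**Figure D2:**
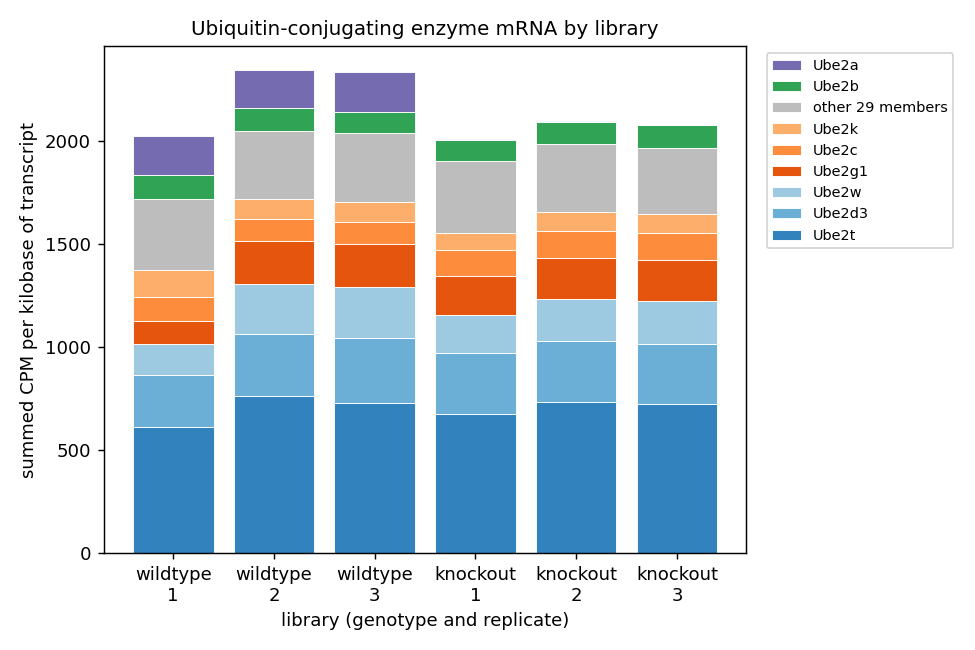
Summed CPM per kilobase of ubiquitin-conjugating enzyme messages in each library, split into the 6 most abundant members, the other members, Ube2b and Ube2a. The members' part is 1717 to 2045 in wildtype and 1902 to 1982 in knockout libraries, and the Ube2a segment is visible in the wildtype bars alone.

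Of the 32 members with enough counts, 2 rose, 1 fell and 29 did not pass an adjusted p of 0.05 (edgeR, quasi-likelihood F test). That is 9.38% of the tested members, against 11.2% of all 14957 tested genes, of which 5.87% were higher and 5.34% lower. The genes that rose were Ube2e1 and Ube2q1, and the gene that fell was Ube2u. The median log2 fold change of the members was 0.02, beside 0.00 over all tested genes. Their median absolute log2 fold change was 0.28, beside 0.30 over all tested genes. At 10 CPM or more in wildtype it was 0.28 for 27 members and 0.24 for 8391 tested genes. Without wildtype replicate 1, 6 members rose and 7 fell, 40.6% of those tested, against 34.4% of all genes (16.7% higher and 17.7% lower). DESeq2 called 2 members higher and 4 lower, adding Ube2e3, Ube2cbp and Ube2ql1 to those 3, against 17.9% of all genes (8.89% higher and 8.97% lower). Leaving out any 1 knockout library or wildtype replicate 2 ended all 3 calls, and leaving out wildtype replicate 3 kept Ube2u alone.

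Ube2e1 encodes an E2 with an extended amino terminus that serves several ligases (Entrez 22194, GRCm38 chromosome 14, 18282726 to 18332004). It had 39.8, 40.5 and 40.6 CPM in knockout replicates 1 to 3 and 24.4, 30.6 and 28.5 CPM in wildtype replicates 1 to 3. Every knockout library was above every wildtype library, and the knockout values were tightly grouped. The mean went from 27.8 ± 3.19 to 40.3 ± 0.418 CPM (SD, n = 3 each), 1.45-fold (log2 0.54, SE 0.129, edgeR adjusted p = 0.0377). Adjusted p was 0.00187 without wildtype replicate 1, and between 0.0657 and 0.153 without any 1 of the other libraries. The end of Ube2e1 overlaps Nkiras1, on the opposite strand, by 1278 bases. Of all 50-base windows of its longest transcript 59.0% also occur in transcripts of other genes on either strand, 49.3% in those of Nkiras1. Nkiras1 was the more abundant gene and differed by a log2 fold of -0.14 (edgeR adjusted p = 0.454). Since the strand setting of the counting is not given in the sources used here, reads from the shared stretch cannot be told apart.

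Within the UBE2E family, whose 3 members are close relatives, Ube2e3 had values in the other direction. It had 55.8, 48.2 and 51.7 CPM in knockout replicates 1 to 3 and 64.7, 65.5 and 69.7 CPM in wildtype replicates 1 to 3 (log2 -0.36, SE 0.116, edgeR adjusted p = 0.0858). The groups did not overlap, yet the gene did not pass, except without wildtype replicate 1 (adjusted p = 0.00386), with DESeq2 and with limma-voom. Ube2e2 was scarce and its groups overlapped, at 5.81 ± 0.886 against 4.86 ± 1.60 CPM. Per kilobase, Ube2e1 made up 51.6 ± 1.46% of the family in knockout and 37.5 ± 1.85% in wildtype libraries. Ube2e3 made up 41.6 ± 2.27% and 56.5 ± 3.44%. The ratio of Ube2e1 to Ube2e3 was 1.14, 1.34 and 1.25 in knockout and 0.601, 0.747 and 0.653 in wildtype replicates 1 to 3. Between the means the ratio was 1.87 times as high in the knockout, whatever lengths are used. Which gene was the more abundant in the knockout depends on the lengths, since the ratio there was 0.836 ± 0.0673 with coding lengths and 0.768 ± 0.0618 with exon union lengths. The exact two-sided permutation p was 0.1, the smallest that 3 against 3 allows. It was fixed because the groups of Ube2e1 and Ube2e3 lay apart in opposite directions. The ratio was also chosen after its values were seen. The family's sum overlapped between genotypes, at 55.5 ± 1.26 against 52.6 ± 3.86 CPM per kilobase.

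Ube2q1 encodes an atypical E2 with a long amino-terminal region, and female mice lacking it are known for reduced fertility (Entrez 70093, chromosome 3, 89773609 to 89783997). It had 46.4, 43.6 and 40.9 CPM in knockout replicates 1 to 3 and 30.3, 27.7 and 30.8 CPM in wildtype replicates 1 to 3. The groups were well apart, and wildtype replicate 1 lay with the other wildtype libraries. The mean went from 29.6 ± 1.69 to 43.6 ± 2.73 CPM, 1.47-fold (log2 0.56, SE 0.119, edgeR adjusted p = 0.0265). Without wildtype replicate 1 the log2 fold change was 0.58 (adjusted p = 0.00074), and without any 1 of the other libraries adjusted p was between 0.0628 and 0.138. No 50-base window of its longest transcript occurs in another gene's transcripts. Its relative Ube2q2 had overlapping groups, at 48.2 ± 7.34 against 39.9 ± 4.15 CPM (log2 0.27, edgeR adjusted p = 0.273).

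Ube2ql1, another relative, had the largest fitted change of the set but did not pass. It had 18, 19 and 9 counts in knockout and 56, 26 and 18 counts in wildtype replicates 1 to 3. Scaled, that was 0.530, 0.508 and 0.238 CPM against 1.345, 1.002 and 0.823 CPM, with no overlap (log2 -1.33, SE 0.376, edgeR adjusted p = 0.0597). DESeq2 gave an adjusted p of 0.0262. With so few reads the size of its change is uncertain.

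Ube2u encodes a little-studied E2 (Entrez 381534, chromosome 4, 100478867 to 100550145). It had 10.5, 10.5 and 11.8 CPM in knockout replicates 1 to 3 and 26.9, 16.8 and 15.9 CPM in wildtype replicates 1 to 3. Every knockout library was below every wildtype library, and wildtype replicate 1 lay far above the other wildtype libraries. The mean fell from 19.9 ± 6.14 to 10.9 ± 0.730 CPM, 1.82-fold (log2 -0.87, SE 0.219, edgeR adjusted p = 0.0434). Without wildtype replicate 1 the log2 fold change was -0.58 (adjusted p = 0.00209). By level per kilobase it was at place 15 in wildtype and 23 in knockout oocytes. Its wildtype place ran from 12 to 18 over the libraries. It was 18 without wildtype replicate 1 and 24 with coding lengths. Only 0.27% of its 50-base windows occur in transcripts of other genes.

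**Figure D3:**
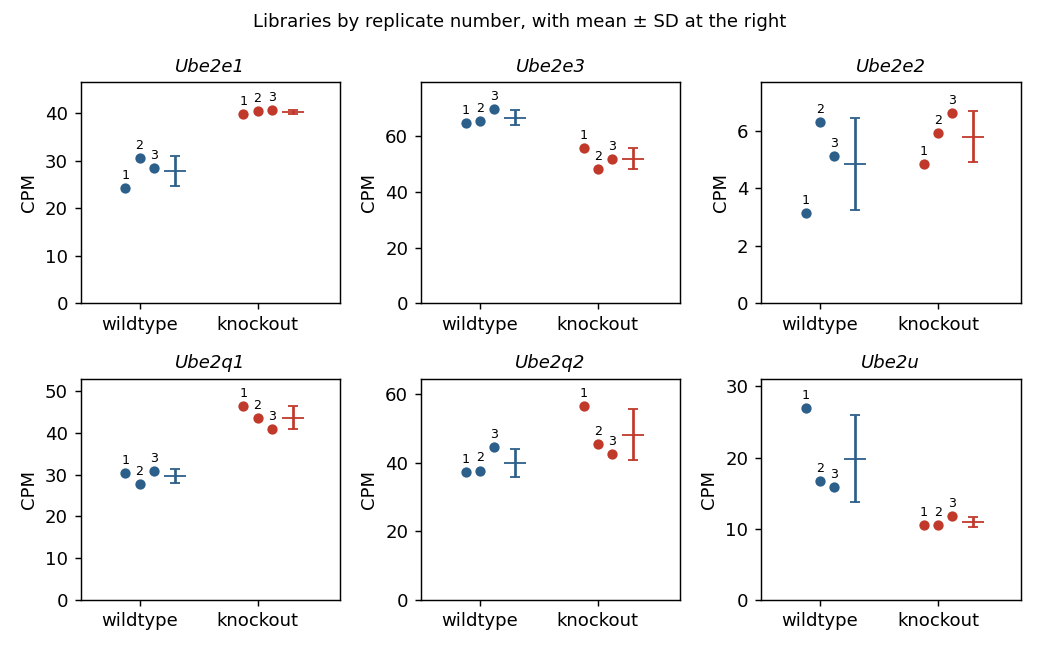
CPM in each library, numbered by replicate, for the UBE2E family, Ube2q1 with Ube2q2, and Ube2u, with the mean ± SD at the right of each group. Knockout libraries lie above wildtype for Ube2e1 and Ube2q1 and below for Ube2e3 and Ube2u, while the groups overlap for Ube2e2 and Ube2q2.

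The 250 bases before a listed start of each of the 3 genes that passed are shown because they differ in composition (RefSeq, GRCm38.p6, 5′ to 3′ on the gene's strand). Capitals mark 4 motifs, each searched on both strands. These are the E-box CACGTG, the CCAAT box, whose reverse complement is ATTGG, the GC box GGGCGG, whose reverse complement is CCGCCC, and the TATA box TATAAA, whose reverse complement is TTTATA. Copies of GGGCGG may overlap one another. The windows are chr14:18331845-18332094 on the minus strand for Ube2e1, chr3:89773359-89773608 on the plus strand for Ube2q1, and chr4:100478617-100478866 on the plus strand for Ube2u. The start listed for Ube2e1 is an internal one, and 160 bases of its window lie within the gene as annotated.
Ube2e1: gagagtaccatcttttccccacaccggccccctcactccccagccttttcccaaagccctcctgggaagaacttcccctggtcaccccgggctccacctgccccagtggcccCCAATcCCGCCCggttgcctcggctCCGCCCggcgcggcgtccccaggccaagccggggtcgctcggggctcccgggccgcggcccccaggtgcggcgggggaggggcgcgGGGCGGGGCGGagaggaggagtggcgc
Ube2q1: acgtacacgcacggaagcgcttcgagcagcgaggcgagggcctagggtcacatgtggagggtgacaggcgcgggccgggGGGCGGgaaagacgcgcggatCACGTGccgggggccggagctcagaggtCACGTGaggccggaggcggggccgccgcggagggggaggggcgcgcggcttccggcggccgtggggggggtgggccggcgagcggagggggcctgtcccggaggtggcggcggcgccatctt
Ube2u: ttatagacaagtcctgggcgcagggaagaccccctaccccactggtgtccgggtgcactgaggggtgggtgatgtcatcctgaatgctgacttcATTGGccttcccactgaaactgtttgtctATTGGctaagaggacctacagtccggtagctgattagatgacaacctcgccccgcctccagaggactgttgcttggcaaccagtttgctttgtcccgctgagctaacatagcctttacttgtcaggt
Ube2e1 had 4 matches to the GC box GGGCGG and 1 to CCAAT. Ube2q1 had 1 GC box and 2 copies of CACGTG, a sequence bound by basic helix-loop-helix factors such as TFE3 and USF. Ube2u had 2 CCAAT matches and neither of the other motifs. CACGTG is in 6.63% of the 21262 windows of protein-coding genes, and among 38 windows of 28 members it was in Ube2q1 alone. GGGCGG is in 42.6% of protein-coding windows and in 25 of the members' 38. The count of CG dinucleotides was 23 for Ube2e1, 36 for Ube2q1 and 6 for Ube2u, beside a median of 23.5 over the members' windows and 10 over those of protein-coding genes. The counts do not show which start site the oocyte uses, and a match is no evidence of binding.

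Over the 29 members that did not pass, adjusted p was at least 0.0597, and apart from Ube2ql1 their log2 fold changes lay between -0.44 and 0.46. In 15 of the 32 tested members (46.9%) the groups did not overlap, 6 higher and 9 lower, against 40.2% of all tested genes (21.0% higher and 19.2% lower). Besides those named, they included Ube2z, which receives ubiquitin from the E1 enzyme Uba6, and Ube2f on the higher side, and Ube2d1 and Ube2cbp on the lower. At an unadjusted p under 0.05 there were 10 members, or 31.2%, against 28.8% of all tested genes.

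Genes that the cell cycle depends on were among those that did not pass. Ube2c had 276, 290 and 289 CPM in knockout and 255, 235 and 237 CPM in wildtype replicates 1 to 3 (log2 0.24, SE 0.106, edgeR adjusted p = 0.189). Its partner Ube2s had 8.19, 8.74 and 7.21 CPM in knockout and 9.10, 10.98 and 11.25 CPM in wildtype replicates 1 to 3 (log2 -0.37, SE 0.158, edgeR adjusted p = 0.164). Neither gene's groups overlapped, and they pointed in opposite directions. Per kilobase the ratio of Ube2c to Ube2s was 20.2 ± 2.18 in knockout against 13.3 ± 2.23 in wildtype libraries. Its exact two-sided permutation p was 0.1, the smallest possible, which was fixed because the genes' groups lay apart in opposite directions. The ratio was chosen after its values were seen. Without wildtype replicate 1, Ube2c passed (log2 0.27, adjusted p = 0.00298) and so did Ube2s (log2 -0.47, adjusted p = 0.0154). Of the windows of Ube2c's longest transcript 17.8% are shared with other genes, mostly with its neighbour Tnnc2.

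Of the other abundant enzymes, Ube2t and Ube2d3 had fitted differences near 0. Ube2t differed by a log2 fold of 0.02 (SE 0.125, edgeR adjusted p = 0.932) and Ube2d3 by one of 0.02 (SE 0.123, edgeR adjusted p = 0.928). Without wildtype replicate 1, the lowest library for both, each differed by -0.07. Neither passed in that fit (edgeR adjusted p = 0.353 for Ube2t and 0.297 for Ube2d3), though the groups of Ube2d3 then lay apart, lower in the knockout. Ube2w (log2 -0.09) and Ube2g1 (0.15) had larger errors, of 0.194 and 0.229, and wildtype replicate 1 was their lowest library. Without it Ube2w was lower in the knockout (log2 -0.29, adjusted p = 0.00309) and Ube2g1 differed by a log2 fold of -0.10 (adjusted p = 0.161). Ube2k differed by a log2 fold of -0.28 (adjusted p = 0.288), and -0.10 without that library (adjusted p = 0.233). Ube2d2a had 78.3, 84.3 and 83.1 CPM in knockout and 135, 101 and 97.9 CPM in wildtype replicates 1 to 3 (log2 -0.44, SE 0.149, edgeR adjusted p = 0.0976). Without wildtype replicate 1 it passed (log2 -0.28, adjusted p = 0.00659). Transcripts of other genes hold 16.5% of the windows of Ube2d3 and 16.2% of those of Ube2d2a, so their counts are less certain.

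The NEDD8 enzymes differed in sign, and neither passed. Ube2m, the main NEDD8 enzyme for cullins, averaged 27.9 ± 2.19 against 37.7 ± 5.06 CPM (log2 -0.43, edgeR adjusted p = 0.0889). Ube2f, the other NEDD8 enzyme, averaged 30.3 ± 1.48 against 24.2 ± 3.46 CPM (log2 0.33, edgeR adjusted p = 0.177). For both the genotypes did not overlap. Per kilobase the ratio of Ube2m to Ube2f was 3.54 ± 0.279 in knockout and 6.15 ± 1.75 in wildtype libraries. By library it was 3.31, 3.85 and 3.45 in knockout and 8.10, 5.60 and 4.74 in wildtype replicates 1 to 3. Without wildtype replicate 1, the highest, the wildtype mean was 5.17. Here too the exact two-sided permutation p of 0.1, the smallest possible, was fixed by the opposite directions of the genes. This ratio was also chosen after its values were seen. With the RefSeq-matched transcripts the ratio was 0.853 ± 0.0672 against 1.48 ± 0.421, so its level rests on the length chosen for Ube2f.

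The enzymes of endoplasmic reticulum-associated degradation had positive or near-zero differences. Ube2g2 had 145, 104 and 108 CPM in knockout and 89.7, 90.4 and 96.8 CPM in wildtype replicates 1 to 3 (log2 0.37, SE 0.150, edgeR adjusted p = 0.154). Knockout replicate 1 was far above the rest. The membrane-anchored Ube2j1 (log2 0.16, adjusted p = 0.547) and Ube2j2 (log2 0.00, adjusted p = 0.998) had overlapping groups. Ube2n (0.08), Ube2v1 (-0.09), Ube2v2 (0.46), Ube2l3 (-0.10), Ube2h (-0.05), Ube2r2, a relative of Cdc34 (0.29), and Ube2o, a large enzyme with ligase activity of its own (0.03), also overlapped between the genotypes. Of Ube2v1's windows 91.2% occur in other transcripts, 81.6% in the read-through gene Gm20431, of Ube2l3's 58.9%, mostly in Ydjc, and of Ube2h's 46.3%, mostly in Gm26526, so the values of these genes are uncertain.

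**Figure D4:**
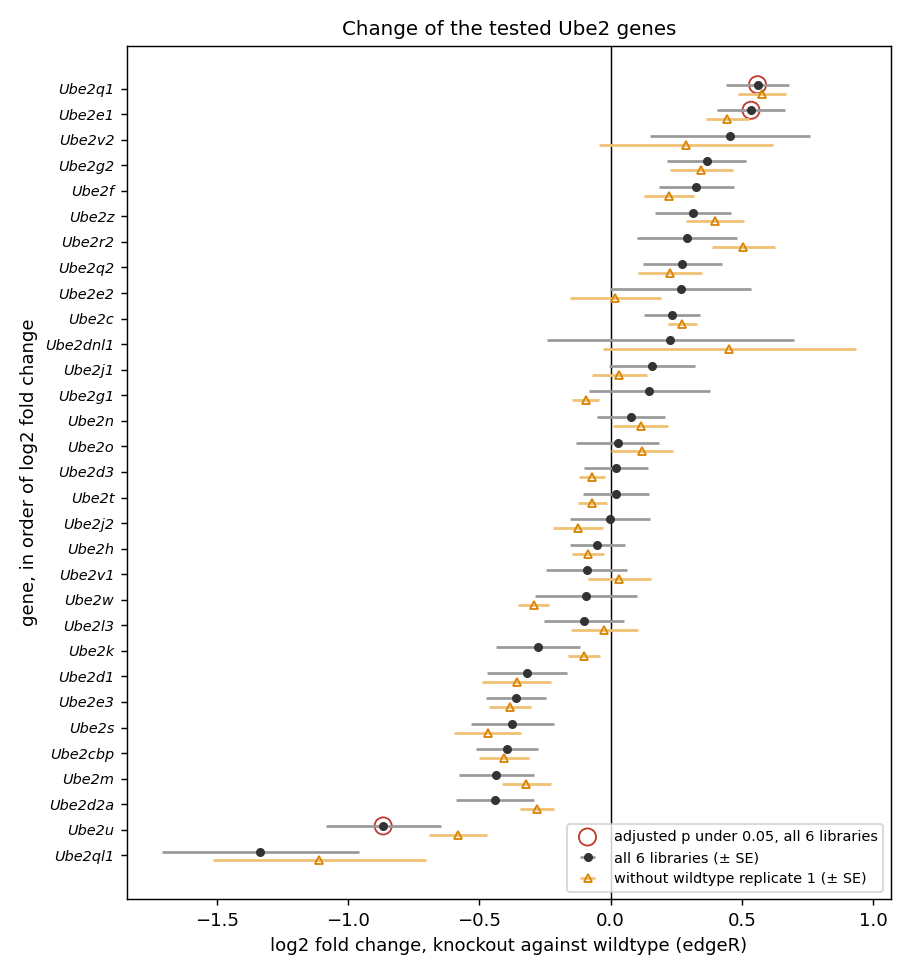
Fitted log2 fold change of 31 of the 32 tested members with standard errors, from all 6 libraries (filled circles) and without wildtype replicate 1 (open triangles), with the genes that passed in all 6 libraries ringed. Ube2q1 and Ube2e1 lie highest, at 0.56 and 0.54, and Ube2u at -0.87, and leaving out the library shortens most error bars.

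Members that missed the threshold over all 6 libraries but passed without wildtype replicate 1 were Ube2c, Ube2g2, Ube2z and Ube2r2, higher, and Ube2w, Ube2d2a, Ube2e3, Ube2m, Ube2cbp and Ube2s, lower. Their log2 fold changes in that fit lay between -0.47 and 0.51. In wildtype replicate 1 the median distance of the members from the mean of wildtype replicates 2 and 3 was 0.30 on the log2 scale, regardless of sign, against 0.44 over all tested genes. The widest gaps were those of Ube2g1 (-0.90), Ube2e2 (-0.84), Ube2u (0.72) and Ube2w (-0.70).

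Other parts of the conjugation pathway were read from lists. Among 8 tested genes of the E2 family with other names, Atg3, which attaches the autophagy protein LC3 to lipid, rose and 7 did not pass. It had 119, 123 and 116 CPM in knockout and 44.9, 75.5 and 72.4 CPM in wildtype replicates 1 to 3 (log2 0.89, SE 0.197, edgeR adjusted p = 0.0296), and log2 0.69 without wildtype replicate 1. It passed in 2 of the 6 fits with 1 library left out. Cdc34, the E2 of cullin ligases, differed by a log2 fold of -0.29 (edgeR adjusted p = 0.439), and by 0.05 without wildtype replicate 1 (adjusted p = 0.66). Birc6, a giant E2 that restrains cell death, differed by -0.61 (edgeR adjusted p = 0.123), and by -0.29 without that library, where it passed (adjusted p = 0.021).

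Among 47 tested ligases and cofactors of these E2s, 1 rose, 0 fell and 46 did not pass, where 11.2% of all tested genes were called. The one that rose was Hltf, a ligase that works with Ube2n on the sliding clamp PCNA at stalled replication forks. It had 56.7, 64.1 and 64.1 CPM in knockout and 30.8, 32.7 and 34.5 CPM in wildtype replicates 1 to 3. The groups were far apart, and the mean went from 32.7 ± 1.85 to 61.6 ± 4.31 CPM (log2 0.92, SE 0.120, edgeR adjusted p = 0.00475). Hltf still passed in each of the 6 fits that left out 1 library. The list's median log2 fold change was -0.04. Without wildtype replicate 1, 2 rose and 10 fell, where 34.4% of all genes were called.

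Of 8 tested E1 enzymes 0 passed in edgeR's test, with 2 at an unadjusted p under 0.05; DESeq2 called 1 and limma-voom with quality weights 5. Uba1, the main E1 of ubiquitin, had 253 ± 3.49 against 303 ± 28.6 CPM (log2 -0.26, edgeR adjusted p = 0.184). Its groups did not overlap, and it passed without wildtype replicate 1 (log2 -0.34, edgeR adjusted p = 0.000801). Of 15 tested genes for ubiquitin and its relatives 0 passed in edgeR, with 2 at an unadjusted p under 0.05; DESeq2 called 1 and limma-voom with quality weights 6. Ubb, a polyubiquitin gene, had 137 ± 2.10 against 105 ± 5.18 CPM (log2 0.38, edgeR adjusted p = 0.0561). The groups of Ubb did not overlap either, and it passed without that library (log2 0.34, edgeR adjusted p = 0.00112). Medians were 0.04 for the E1 enzymes, 0.14 for the modifiers and -0.04 for the E2 family genes with other names. Without wildtype replicate 1 the E1 list had 1 higher and 4 lower and the modifier list 4 higher and 1 lower. The shares of all genes called were 11.2% in edgeR, 17.9% in DESeq2, 39.7% in limma-voom with quality weights and 34.4% without wildtype replicate 1.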

How the data were processed

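Messenger RNA of about 10 pooled oocytes per library was extracted, copied with the SMARTer kit and made into libraries with NexteraXT, per the labels' protocols. The submitters' processing notes name STAR 2.7.11a, featureCounts 2.0.3 and GRCm38.p6 (mm10). Annotation, strandedness and the handling of multi-mapping reads are not given in the sources used. Deposited values are counts of reads per Entrez gene, treated as raw because each library sums to a different total. One count is 0.0258 to 0.0445 CPM.

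Symbols, biotypes and coordinates (1-based) came from a RefSeq table of the same assembly, which named 25275 of 27179 identifiers, with 17 more from GENCODE release M21. Lengths are those of the longest GENCODE coding transcript. Genes passing edgeR's filterByExpr (minimum count 10) were tested with edgeR 4.0.16's quasi-likelihood test (R 4.3.3), with libraries scaled by TMM (trimmed mean of M values) and adjusted by Benjamini-Hochberg over all tested genes. Standard errors are the absolute log2 fold change over the square root of F. The script was tested on simulated data. Alternatives used DESeq2 1.42.0, limma 3.58.1, other scalings and filters, a replicate block and each library left out. No 2 libraries agreed within sampling noise. With no molecular identifiers described, counts of reads carry more than counting error.

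Members and lists were chosen with earlier results of these data known. Values in each library are given for members that passed, for members with no overlap and an absolute log2 fold change of at least 0.5, for the 8 most abundant, and for genes with known roles in meiosis such as Ube2c and Ube2s. The values of 1 tested member are not reported here, and it is counted in the totals but not plotted. Up to 5 called genes were named from each related list. Ratios between members and other named genes were chosen after their values were seen.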

Additional observations from a re-analysis of the deposited data

How the results depend on the processing

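The direction of Ube2e1, Ube2q1 and Ube2u was the same in every fit run. The 1676 genes called over all genes became 1038 under the filter of 5 CPM in 3 libraries, 2671 with DESeq2, 5943 with limma-voom and quality weights, 537 with the replicate number as a block, and 357 to 5199 with 1 library left out. The 3 called members became 6 with DESeq2, 15 with limma-voom and quality weights, 0 with the block in edgeR (8 at an unadjusted p under 0.05), and 0 to 13 with 1 library left out. Where that count was 0, between 5 and 8 members had an unadjusted p under 0.05. With the block, the log2 fold changes were 0.54 for Ube2e1, 0.56 for Ube2q1 and -0.82 for Ube2u, and none passed. Ube2u also lost its call with upper quartile scaling (-0.87) and the stricter filter (-0.90). Leaving out 1 library gave 0.45 to 0.60 for Ube2e1, 0.51 to 0.60 for Ube2q1 and -0.999 to -0.581 for Ube2u. Whether the replicate numbers pair the samples is not in the labels. Deviations of same-numbered libraries correlated at -0.101, -0.018 and -0.113, and 0 of 3 knockout libraries correlated best with their own number. With 3 libraries in each group and wildtype replicate 1 apart from the others, these values cannot settle it. The share of the 6 most abundant members was 73.7% with exon union lengths, an alternative added after seeing the data like the length of RefSeq-matched transcripts. For the other choices of length or library it stayed within 1 SD of 82.5%. The planned coding length was taken from GENCODE coding sequences. The causes of these differences were not tested. Levels under about 1 CPM, as for Ube2v2 and Ube2ql1, rest on few reads.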
